A study of Mus musculus with 6 samples.

Results

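The regions described here are rCGG-specific differentially hydroxymethylated regions that lie in 1 Mb stretches of the mouse genome where the rCGG-specific regions outnumber the wildtype-specific ones. Each autosomal region was placed in a 1 Mb window by its midpoint, and members were selected on the counts of regions per window: a member window holds at least 3 rCGG-specific regions and at least 2 times as many rCGG-specific as wildtype-specific regions. There were 1028 members, in 211 windows, among 4288 autosomal rCGG-specific regions and 12969 regions of both lists on all chromosomes. The data come from the cerebellum of 6 mice of strain C57BL/6, 3 wildtype littermates and 3 animals titled rCGG with the genotype FXTAS, all 16 weeks old. No source used here gives the promoter, the length of the CGG repeat or the cells that express it. DNA carrying 5-hydroxymethylcytosine (5hmC) was glucosylated with an azide sugar, biotinylated, captured and sequenced, and the authors' comparison of the genotypes was deposited as a pair of region lists. Values per animal were not used here, so no sentence below rests on a test over animals, and the intervals cover counting error only.

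5hmC is made from 5-methylcytosine by the TET dioxygenases. It is far more abundant in neurons than in most other cells and accumulates in gene bodies and at distal regulatory elements as neurons mature. Fragile X-associated tremor/ataxia syndrome affects carriers of a CGG repeat expansion of premutation size in FMR1. Its transcript with the expanded repeat (rCGG) sequesters RNA-binding proteins, and the cerebellum, with loss of Purkinje cells, is one of the tissues affected. In whole cerebellum, granule neurons supply most of the DNA, so a region call averages over cell types, and a change in cell proportions cannot be told apart from a change of 5hmC within cells.

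Member windows held 4.87 rCGG-specific and 1.32 wildtype-specific regions each, against 2.23 and 4.47 over all 1924 autosomal windows with any region. The rule was met by 11.0% of those 1924 windows. The mirrored rule, with the lists exchanged, was met by 737 windows or 38.3%. The wildtype list is the longer, and the part of its length in this difference was not tested. Of the autosomal rCGG-specific regions 23.97% were members (95% exact binomial interval 22.7% to 25.3%), while 278 of 8603 wildtype-specific regions, 3.23%, lay in the same windows. These values follow from the rule and describe it. The 488 other windows with at least 3 rCGG-specific regions held 4.11 rCGG-specific regions each, close to the 4.87 of the member windows. They held 5.88 wildtype-specific regions each, against 1.32. Only their wildtype-specific regions kept these windows from meeting the rule, so that difference also follows from it.

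**Figure D1:**
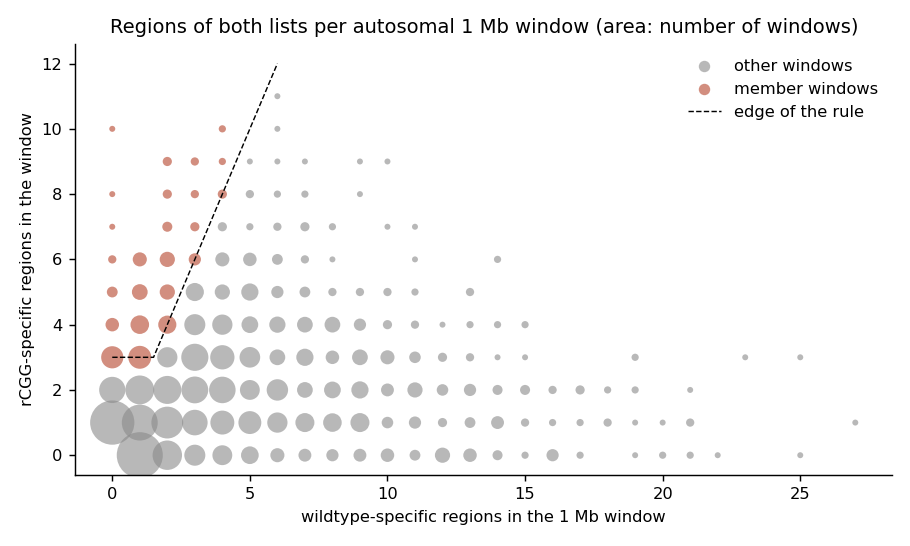
Each point is a combination of wildtype-specific (x axis) and rCGG-specific (y axis) regions in an autosomal 1 Mb window, with its area growing with the number of windows. The 211 member windows (red) lie on or above the dashed edge of the rule; the largest number of rCGG-specific regions in a member window was 10, and the largest number of wildtype-specific regions was 4.

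The number of regions differed between member windows. A total of 60 windows held exactly 3 members, 49 held 4, 33 held 5, 35 held 6, 10 held 7, 12 held 8, 9 held 9 and 3 held 10. No wildtype-specific region lay in 51 of the windows, which together held 200 members, and 76 windows held 1, 58 held 2, 18 held 3 and 8 held 4. Many windows stood at the edge of the rule. With at least 1 wildtype-specific region, 31 windows held exactly 2 times as many rCGG-specific regions, for example 19 windows with 4 and 2 and 4 windows with 8 and 4. Just outside lay 24 windows with 3 and 2, 26 with 4 and 3, and 19 with 5 and 3. On chromosome 14 the window with the most rCGG-specific regions of the series, 11, was no member because it also held 6 wildtype-specific regions.

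Of the 3 windows with 10 members, 1 was without wildtype-specific regions, on chromosome 16 at 24000001-25000000 (mm9, as are all coordinates here, counted from 1). The members fell into 4 wide regions followed by 6 of ordinary width. The first 4, between 24237838 and 24567314, had widths of 2172, 4437, 3107 and 1980 bp. The widest of all members is among them, at 24474677-24479113, with a score of 92.49. The remaining 6, from 24701762 to 24940620, had widths of 713 to 972 bp and included the best-scored region of the window, 103.64 at 24761549-24762520. The score is the authors' own value per region. Its scale is not stated. Neither list holds a score below 50, and the score serves here only to rank regions. Together the 10 regions covered 16.6 kb, the most in any member window.

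Among the windows without wildtype-specific regions, that on chromosome 6 at 50000001-51000000 came next, with 8 members. They were narrower than those on chromosome 16, with a median of 665 bp against 927 bp, and 2 of them, 924 and 490 bp wide, lay 0.242 kb apart at 50066996-50068651. The best-scored of the 8 was at 50376714-50378228, with 93.95. A window on chromosome 8 at 42000001-43000000 held 7 members and no wildtype-specific region. Its scores were all low, from 51.04 to 62.81, and the first 5 members ended at 42429292, while the last pair, at 42944034-42945290 and 42945670-42946571, followed after a gap of 514.7 kb.

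In all, 12 windows had at least 5 members and no wildtype-specific region, with 73 members between them. Beside those on chromosomes 16, 6 and 8, windows with 6 members lay on chromosome 2 at 105000001-106000000, on chromosome 6 at 77000001-78000000 and on chromosome 9 at 13000001-14000000. The chromosome 9 window held the wider and better-scored members, with a median width of 1290.5 bp and scores up to 108.66 at 13378431-13381519, where the region spanned 3089 bp. The members on chromosome 2 had a median width of 746 bp and those on chromosome 6 of 785.5 bp, and no score there exceeded 72.67. Windows with 5 members lay on chromosome 1 at 140000001-141000000, chromosome 5 at 39000001-40000000, chromosome 7 at 96000001-97000000, chromosome 9 at 28000001-29000000, chromosome 13 at 20000001-21000000 and chromosome 16 at 7000001-8000000. Within the chromosome 1 window 4 of the 5 members lay together at its end, behind a gap of 423.0 kb. In the second chromosome 9 window the gap was 577.3 kb, again with 4 of 5 members on its far side. The 5 members of the chromosome 16 window at 7 Mb spanned only 153.6 kb.

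The other 11 windows with 9 or 10 members all contained wildtype-specific regions. Chromosome 3 at 55000001-56000000 and chromosome 15 at 30000001-31000000 each held 10 members and 4 wildtype-specific regions. On chromosome 15 all 4 lay between the first and the last member, and in the chromosome 3 window 3 of 4 did. The chromosome 15 members were the wider, with a median of 1212.5 bp against 792 bp, and reached a score of 129.1 at 30737536-30738815. Windows with 9 members and 2 wildtype-specific regions lay on chromosome 3 at 126000001-127000000, chromosome 5 at 132000001-133000000, chromosome 15 at 58000001-59000000 and chromosome 16 at 6000001-7000000. The lists were set apart on chromosome 15, where both wildtype-specific regions preceded the first member at 58146236. They were interleaved on chromosome 3, where wildtype-specific regions at 126534325-126534996 and 126547681-126548186 lay on either side of the member at 126542739-126543507. Windows with 9 members and 3 wildtype-specific regions lay on chromosome 1 at 64000001-65000000, chromosome 4 at 9000001-10000000 and chromosome 12 at 41000001-42000000. Windows with 9 members and 4 wildtype-specific regions lay on chromosome 1 at 88000001-89000000 and chromosome 3 at 156000001-157000000. In the chromosome 4 window, 6 of the 9 members fell between 9226710 and 9299427, with no wildtype-specific region among them. The chromosome 12 window held the second widest member, 4384 bp at 41192330-41196713.

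**Figure D2:**
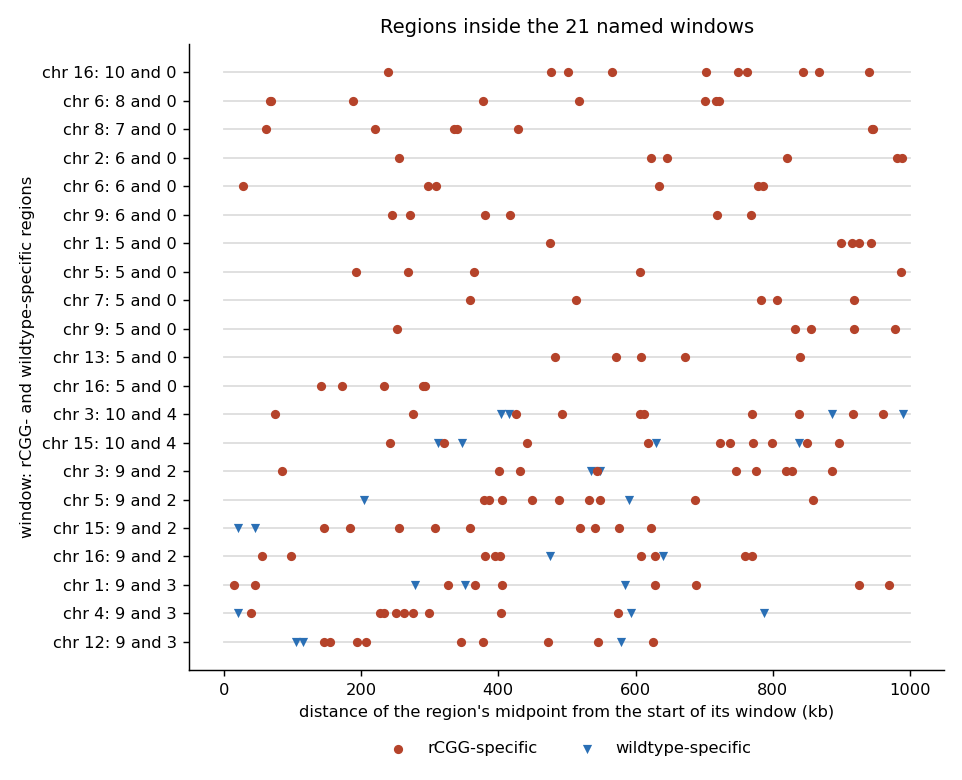
Midpoints of rCGG-specific (circles) and wildtype-specific regions (triangles) within the 21 named windows, in kb from the start of each window; the labels give the chromosome and the numbers of both kinds. The 12 upper windows hold no wildtype-specific region, and in the 9 lower ones they lie between the members, outside the stretch from the first to the last member, or both; on chromosome 15 with 9 and 2 and on chromosome 4 with 9 and 3 none lies between members.

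The distance from the first to the last member had a median of 584.1 kb over the 211 windows, and quartiles of 382.7 and 734.8 kb. In windows with 3 members it had a median of 391.4 kb, and in windows with 7 to 10 a median of 724.0 kb. A span under 200 kb was found in 22 windows, with 76 members. The tightest was on chromosome 5 at 105867542-105888787, where 3 members took up 21.25 kb. Members covered a median of 4.21 kb of their window, with a range of 1.80 to 16.63 kb. A member's nearest rCGG-specific region was 54.3 kb away in the median (95% order-statistic interval 49.65 to 59.34 kb), against 129.2 kb (122.1 to 137.4 kb) for the other autosomal rCGG-specific regions. The nearest wildtype-specific region was 191.2 kb from a member and 71.6 kb from other rCGG-specific regions. The rule selected on density, so these distances are descriptions.

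Another rCGG-specific region lay within 10 kb of 15.6% of members (13.4% to 17.9%) and of 7.52% (6.63% to 8.47%) of the other rCGG-specific regions. Successive members with gaps under 10 kb, uninterrupted by the wildtype list, formed 78 chains that took in 160 members. All but 4 of these chains were pairs, and the 4 held 3 members each. They lay on chromosome 8 at 34529853-34536092, spanning 6.24 kb, on chromosome 18 at 21348249-21356926, spanning 8.68 kb, on chromosome 17 at 90447740-90462170, spanning 14.43 kb, and on chromosome 8 at 85587650-85603959, spanning 16.31 kb. The best score in a chain of 3 was 117.93, in the second chain of chromosome 8. Of the 278 wildtype-specific regions in member windows, 168 or 60.4% (54.4% to 66.2%) had their midpoint between the first and the last member. That stretch had a median of 584.1 kb of the 1 Mb window over all member windows, among them the 51 without wildtype-specific regions. In windows with 7 to 10 members the median was 724.0 kb. The share that placement anywhere in the window would give was not computed. Neither more nor less interleaving can therefore be read from the count. In 58 of the 160 member windows with wildtype-specific regions, all of these lay outside that stretch.

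Successive member windows were joined into 178 domains, of which 154 were single windows. The other 24 domains took in 57 windows and 275 members. A pair of domains ran over 4 windows. That on chromosome 1 at 22000001-26000000 held 20 members and 6 wildtype-specific regions, with 5, 4, 5 and 6 members per window and scores up to 123.92. That on chromosome 8 at 92000001-96000000 held 17 members and 6 wildtype-specific regions. Of the 5 domains of 3 windows, the richest lay on chromosome 10 at 107000001-110000000 and held 18 members and 7 wildtype-specific regions. The next held 17 and 3, on chromosome 9 at 13000001-16000000, followed by one on chromosome 1 at 176000001-179000000, which held 14 and 4. The members of the chromosome 9 domain had a median width of 1058 bp, against 752 bp in the second chromosome 1 domain.

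The rule used neither width nor score, and in both the members lay close to the remaining rCGG-specific regions. Members had a median width of 863.5 bp (95% order-statistic interval 849 to 879 bp; quartiles 723 and 1056 bp), against 850 bp (841 to 861 bp) for the 3260 others. Their median score was 59.48 (58.84 to 60.59), against 59.35 (59.12 to 59.98). A score of at least 75 was reached by 18.3% of members (16.0% to 20.8%) and 16.2% of the others (14.9% to 17.5%), and a score of at least 100 by 39 and 115 regions, 3.79% and 3.53%. In each of these 4 measures the intervals overlapped. By chromosome, the members had the larger median width on 12 of 19 autosomes and the higher median score on 9 of 19. With windows of 2 Mb in place of 1 Mb the order of the widths turned, with the members narrower by 12 bp (a difference of -12).

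Among the members, the best-scored were single regions in windows of very different richness. The highest score, 175.86, belonged to a region of 1523 bp on chromosome 2 at 146327136-146328658, in a window of 3 members and 1 wildtype-specific region. It was followed by 157.26 on chromosome 4 at 33015092-33016089, 152.83 on chromosome 1 at 82360385-82361565, 148.96 on chromosome 2 at 68124260-68124973 and 148.12 on chromosome 6 at 23413353-23415077. The best-scored rCGG-specific region of all autosomes, with 1868.47, was not a member. The best score in a member window ranged from 55.13 to 175.9, with a median of 79.19, and it was at least 100 in 36 windows. Widths ranged from 392 to 4437 bp. After those on chromosomes 16 and 12, the widest members were found on chromosome 2 at 135516528-135520812 (4285 bp), chromosome 13 at 70740898-70745110 (4213 bp) and chromosome 7 at 140262222-140266141 (3920 bp). The narrowest was 392 bp wide, on chromosome 17 at 68202965-68203356. The next 4, of 403 to 416 bp, lay on chromosome 9 at 51672406-51672808 and 87162520-87162933, chromosome 3 at 85676482-85676897 and chromosome 15 at 62840896-62841311. A further member of 416 bp, on chromosome 16 at 6607138-6607553, tied with the last of these.

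Members in windows with 7 to 10 of them were wider than those in windows with 3 or 4. The median width was 829 bp (807 to 852 bp) for 376 members in windows with 3 or 4, 861 bp (835 to 888 bp) for 375 in windows with 5 or 6, and 913 bp (885 to 952 bp) for 277 in windows with 7 to 10. With each window counted once, the median of the window medians was 845 bp (786 to 864 bp) over 109 windows with 3 or 4. It was 854.5 bp (798.5 to 885.5 bp) over 68 windows with 5 or 6. Over 34 windows with 7 to 10 it was 914 bp (867 to 978 bp). Neighbouring classes had overlapping intervals, while those of the first and the last class did not overlap. The score moved less, from 59.34 in the first class to 60.12 in the last, with intervals of 58.64 to 61.0 and 58.22 to 62.83. Other rCGG-specific regions were likewise narrowest in sparse windows: 821 bp (808 to 836 bp) in non-member windows with 1 or 2 of them, 865.5 bp with 3 or 4, 877 bp with 5 or 6 and 876 bp (831 to 926 bp) with 7 to 11. Outside member windows the rise was thus from windows with 1 or 2 to those with 3 or 4. From 3 upward, the range that member windows cover, these medians were close. Their intervals overlapped, with 853 to 884 bp for 3 or 4 and 855 to 893 bp for 5 or 6. The 831 to 926 bp for 7 to 11 also overlapped the 885 to 952 bp of members in windows with 7 to 10.

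Wildtype-specific regions inside the member windows were narrower than those elsewhere. Their median width was 616 bp (579 to 641 bp; n = 278), against 695 bp (686 to 704 bp; n = 8325) outside, a difference of -79 bp, and they were the narrower on 16 of 19 autosomes. Regions under 500 bp made up 23.7% of them (18.9% to 29.2%) and 15.6% of the others (14.8% to 16.4%). Regions over 2 kb made up 1.44% (0.393% to 3.64%), or 4 regions, against 7.12% (6.58% to 7.70%). The width of wildtype-specific regions also moved with their number per window. In non-member windows with 1 to 4 of them, as many as a member window can hold, the median was 593 bp (580 to 602 bp; n = 1960), with 23.0% under 500 bp, while in windows with 5 or more it was 738 bp (727 to 751 bp). Against the windows with equally few wildtype-specific regions, those in member windows were thus not narrower but 23 bp wider in the median, with overlapping intervals. Their median score, 61.38 (59.64 to 63.43), also overlapped the 62.38 (61.97 to 62.88) outside. In the member windows the median widths of the lists lay 247.5 bp apart, against 155 bp in all other windows together. Where the mirrored rule was met, the medians were 869.5 bp for rCGG-specific and 748 bp for wildtype-specific regions. In windows that met neither rule they were 837 and 598 bp, a distance close to that in the member windows.

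**Figure D3:**
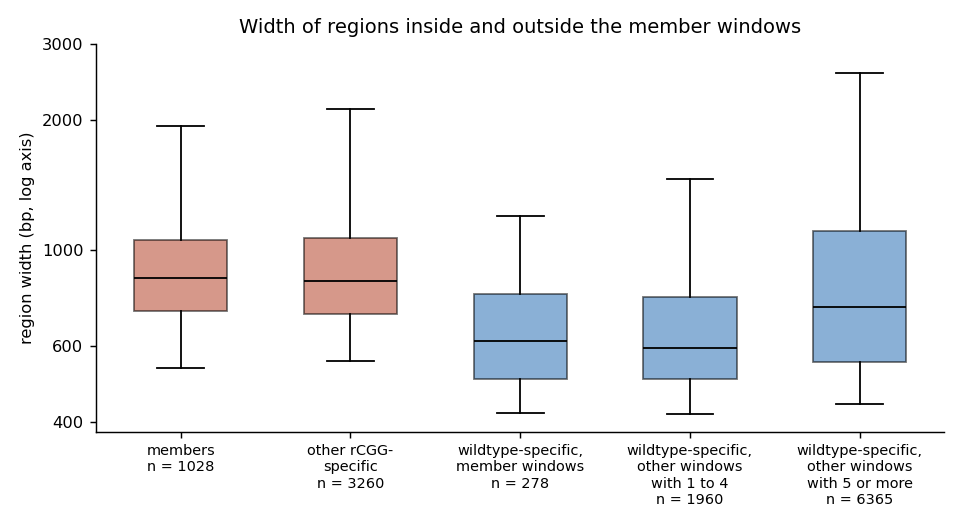
Region widths in bp on a log axis, with boxes from the lower to the upper quartile, a line at the median and whiskers from the 5th to the 95th percentile. Members and other rCGG-specific regions have medians of 863.5 and 850 bp; wildtype-specific regions have 616 bp in member windows, 593 bp in other windows with 1 to 4 of them and 738 bp in windows with 5 or more.

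The balance of the lists was shifted beyond the member windows as well. The rule counted no region of a neighbouring window, so the 292 non-member windows directly next to a member window were compared with those farther away. They held 614 rCGG-specific and 1049 wildtype-specific regions, an rCGG-specific share of 36.9% (34.6% to 39.3%). The 1421 windows that were neither members nor next to one had a share of 26.7% (25.8% to 27.6%). The difference lay mostly in the wildtype list, with 3.59 wildtype-specific regions per window next to members and 5.12 farther away, while the rCGG-specific regions numbered 2.10 and 1.86. The share next to member windows was the higher on 16 of 19 autosomes. The lower value next to member windows was found on chromosome 12, with 28.0% against 31.4%, chromosome 13, with 33.3% against 34.4%, and chromosome 1, with 35.5% against 35.7%. In the second window from any member window the share was 35.1%, and in the third 32.9%. It was 31.9% in the fourth and 31.4% (29.1% to 33.8%) in the fifth. A window near several member windows counts at each of its distances. These classes therefore overlap and are not distances to the nearest member window. Non-member windows of the same chromosomes, in the same proportions, would give 29.5% to 29.8% at these 5 distances. Wildtype-specific regions next to member windows were also narrow, with a median of 619 bp (602 to 638 bp) against 709 bp (699 to 720 bp) farther away, whereas rCGG-specific regions had 850.5 and 849 bp. The width of wildtype-specific regions also moved with their number per window, which was lower next to member windows. Widths at equal numbers were not compared here.

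**Figure D4:**
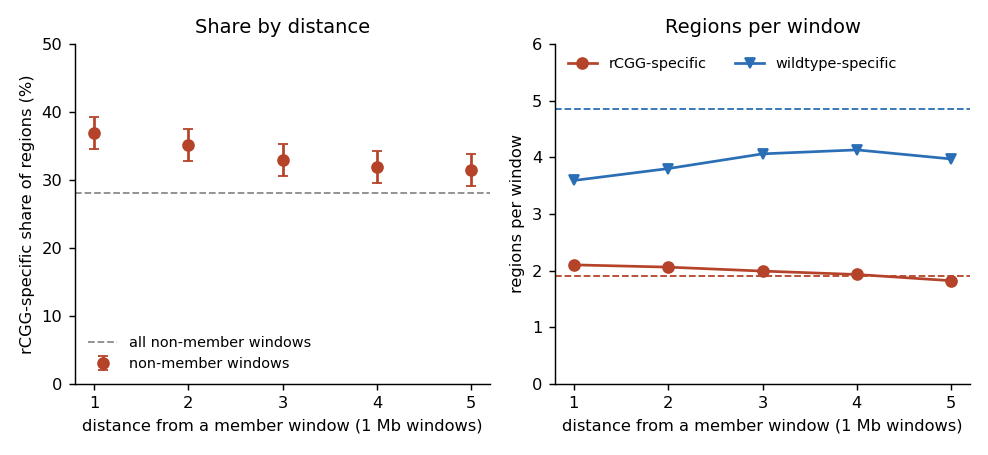
Non-member windows by their distance from any member window in 1 Mb windows. A window near several member windows counts at each of its distances, so the classes overlap. Left, the rCGG-specific share of regions in percent with 95% exact binomial intervals, from 36.9% at 1 window to 31.4% at 5, above the 28.1% of all non-member windows (dashed); right, regions per window, where the wildtype list (triangles) stays below and the rCGG list (circles) near its mean over non-member windows (dashed).

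Member windows were unevenly distributed over chromosomes. On chromosome 3, 97 of 272 rCGG-specific regions were members, or 35.7%, the highest share. Chromosome 8 followed with 84 of 245 (34.3%), then chromosome 15 with 56 of 164 (34.1%) and chromosome 16 with 64 of 188 (34.0%). Their intervals overlap, so no order among these 4 can be given. The share was lowest on chromosome 11, where 6 of 192 or 3.13% (1.16% to 6.68%) were members, and on chromosome 7, with 16 of 212 or 7.55% (4.38% to 12.0%). Chromosome 1 held most members, 114 in 24 windows. The share depends through the rule on how many regions of either list a chromosome carries. Chromosomes 7 and 11 carried 666 and 663 wildtype-specific regions, over 105 and 107 windows with a region. Chromosomes 2 and 4, with shares of 20.6% and 14.0%, carried 716 and 674 over 149 and 118 windows. Of the regions of both lists, 24.15% on chromosome 7 and 22.46% on chromosome 11 were rCGG-specific, the lowest values of the autosomes. On chromosomes 2 and 4 the values were 32.52% and 25.28%. The reason for the low shares on chromosomes 7 and 11 was not tested. Across the 19 autosomes, the percentage of windows that were member windows was the lower the more protein-coding genes a chromosome carries per Mb in the GRCm38 gene table (Pearson r = -0.642, Spearman rho = -0.539, n = 19 chromosomes). The points share the lists and the chromosome lengths. Leaving out chromosomes 7 and 11, whose gene density is farthest from the median, gave r = -0.331, so that the relation rests largely on them.

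**Figure D5:**
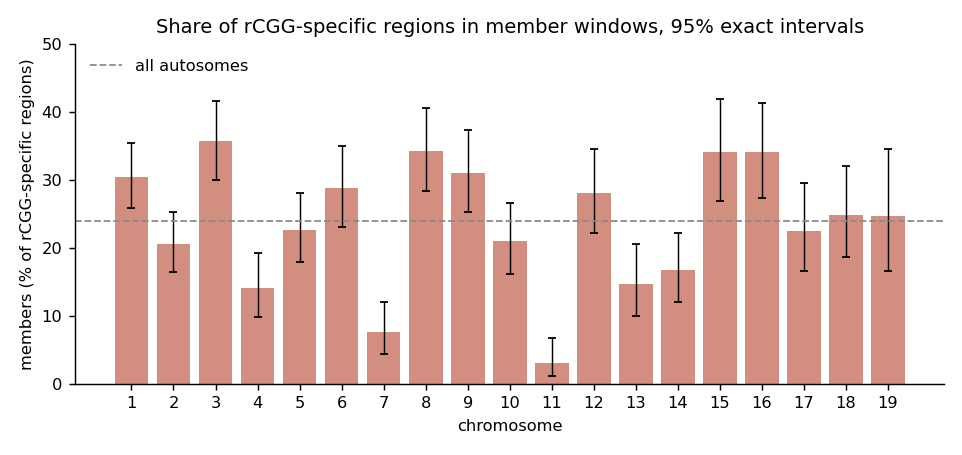
Members as a percentage of all rCGG-specific regions on each autosome, with 95% exact binomial intervals; the dashed line marks the 23.97% of all autosomes. Chromosomes 3, 8, 15 and 16 reach at least 34.0%, and chromosomes 7 and 11 stay at 7.55% and 3.13%.

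For position, the stretch of each autosome from its first to its last region was divided into 3 parts of equal length. The part with the lowest coordinates, the one nearest the centromere in mouse assemblies, held 38.2% of members (35.3% to 41.3%), against 28.1% of the other rCGG-specific regions (26.5% to 29.6%) and 26.6% of the wildtype-specific regions (25.7% to 27.5%). The share there was higher for members than for other rCGG-specific regions on 13 of 19 autosomes. On chromosome 1 it was 49.1% against 25.0% and on chromosome 4 62.5% against 23.5%, while on chromosome 2 it was 14.1% against 33.2%. Counted as windows the difference was smaller. Member windows made up 12.0% of windows in the part nearest the centromere (9.54% to 14.8%), 10.9% in the middle and 10.1% (8.00% to 12.6%) in the last, with overlapping intervals. Wildtype-specific regions per window rose over the same parts, from 3.71 to 4.13 and 5.44, and rCGG-specific regions from 2.12 to 2.18 and 2.37. The rule favours windows with few wildtype-specific regions, so the position of members is not independent of it. How much of the difference in share follows from the rule was not tested. When both lists were limited to scores of 75 or more before the rule was applied, it selected 74 regions, of which 35 were among the 1028 members. The difference in share between these 74 and the other rCGG-specific regions was -0.120 percentage points.

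Which regions were members depended on where the windows began. With windows shifted by 500 kb, 1004 regions in 210 windows met the rule, nearly as many as before, but 565 of the 1028 members, 55.0%, were among them. With windows of 500 kb 684 members, 66.5%, met it, and with windows of 2 Mb 549, or 53.4%. A total of 282 members, 27.4%, in 69 windows met it in all 3 other layouts, and 126 members, 12.3%, met it in none. Of the named windows, all 8 members on chromosome 6 at 50 Mb, all 6 on chromosome 6 at 77 Mb and all 5 on chromosome 16 at 7 Mb were among the 282. So were 8 of the 10 on chromosome 16 at 24 Mb. In 8 of the 21 named windows no member met the rule in every layout. These were the windows on chromosome 3 at 55 and 126 Mb, chromosome 15 at 30 and 58 Mb, chromosome 4 at 9 Mb, chromosome 12 at 41 Mb, chromosome 5 at 39 Mb and chromosome 7 at 96 Mb.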

How the data were processed

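Reads had been aligned with Bowtie 0.12.9 to mm9 and HOMER had also been used, per the submitters' processing notes. The 2 lists of regions were used as deposited by the authors, in files without a header. Peak names are those of MACS, per the name column. Its version, settings and control, and any pooling of libraries, are not stated in those sources. Starts and ends were converted to counting from 1. The score was deposited by the authors on a scale not stated. Depth is unknown, so lists called at unequal depth could differ in length for that reason alone.

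Medians carry 95% order-statistic intervals and shares 95% Clopper-Pearson intervals. Both treat regions as independent, which neighbours are not. No test was made, because the files used here hold no value per animal and the rule uses the contrast between the lists. The members and all comparisons were chosen with earlier results of these data known. Named were the 10 windows with most members (ties by fewer wildtype-specific regions, so that 2 of 9 windows with 9 members fell outside and are named for the tie), windows with 5 or more members and no wildtype-specific region, the 5 longest domains, the 5 best-scored, widest and narrowest members, and chains of 3 or more members, of which 5 were planned and 4 exist. Planned descriptions of genes and sequence were not made, since the gene table and promoter sequences used here are of GRCm38; coordinates were not converted between builds. Python 3.11.15, numpy 2.4.6, pandas 2.3.3, scipy 1.17.1 and matplotlib 3.10.9 were used, and window counting was tested on simulated data.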

Additional observations from a re-analysis of the deposited data

Results flagged for a closer look

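The X chromosome was outside the rule. Applied there, the same counts selected 1 of 33 windows with a region, at 65000001-66000000, with 6 rCGG-specific and no wildtype-specific regions, out of 23 rCGG-specific regions on X. The 6 regions lay between 65948186 and 65969077 and had widths of 381 to 771 bp, and all but the widest were narrower than the median of the autosomal members by more than 200 bp. Scores ranged from 61.99 to 235.59, which is above the 175.86 of the best-scored autosomal member. No cause of this result was tested. The genes under these 6 regions were not described, and the sex of the mice is not among the labels.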

How the results depend on the processing

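Against 1028 members in 211 windows, or 23.97% of autosomal rCGG-specific regions, windows of 2 Mb gave 119 member windows and a share of 16.91%. A minimum of 5 rCGG-specific regions gave 652 members in 102 windows, or 15.21%, and a minimum of 4 gave 19.78%. Requiring 3 times as many regions gave 16.72%, and merging regions closer than 10 kb gave 22.13%. With both lists limited to scores of at least 60 the rule selected 410 regions in 108 windows (19.79%), 263 of them among the 1028 members, and with scores of at least 75 it selected 74 in 23 windows (10.35%), 35 of them among the 1028. The median width of members, 863.5 bp, became 843 bp with windows of 2 Mb, 886 bp with a minimum of 5, and 938 and 1034 bp with scores of at least 60 and 75. The median score, 59.48, became 70.99 and 86.89 under these score minimums by construction. Another member lay within 100 kb of 67.41% of members. That share was 77.96% with windows of 500 kb, 60.83% with windows of 2 Mb, 70.87% and 73.93% with minimums of 4 and 5, 61.35% after merging, and 55.12% and 50.0% with scores of at least 60 and 75. The rCGG-specific share next to member windows, 36.92%, was 41.56% with a minimum of 5, and 34.1% and 32.14% with the score minimums.

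Of the differences computed after the data had been seen, a pair changed sign. The width of rCGG-specific regions inside minus outside member windows was -12 bp with windows of 2 Mb, and the difference in share in the part nearest the centromere was -0.1202 percentage points when regions scored below 75 were left out of both lists. The cause was not tested for either sign change. Under all 10 alternatives the share next to member windows stayed above that of farther windows, by 8.476 to 12.4 percentage points. Wildtype-specific regions stayed narrower inside than outside member windows, with differences of -77 to -111.5 bp. The rule limits their number in a member window, and their width moved with that number. Against other windows with 1 to 4 of them, those in member windows had 616 bp against 593 bp. No alternative compared widths at equal numbers. Alternatives for genes and base composition were not run, for want of an mm9 sequence. No paired analysis was possible because the region lists hold no values of single animals, which also kept replicates from being left out in turn. Depth is unknown.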
